A study of Mus musculus with 12 samples.

Results

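The homeobox genes of the Hoxa, Hoxb, Hoxc and Hoxd clusters were followed in E14 mouse embryonic stem (ES) cells after knockdown (KD) of regulators of DNA methylation and of the NuRD complex. Members were taken by gene symbol, Hox followed by a cluster letter and a paralog number, and 39 of the 39 Hox cluster genes in the annotation had a probe on the array, among 32451 genes or accessions with a probe. Of these, 35 Hox genes passed the filter for testing, among 29546 genes tested, namely 9 of 11 in Hoxa, 9 of 10 in Hoxb, 8 of 9 in Hoxc and 9 of 9 in Hoxd. E14 cells, an ES line from strain 129 mice, were grown without feeder cells on gelatin in medium with serum and LIF. A single dish per sample was transiently transfected with esiRNAs, pools of short interfering RNAs cut from a long double-stranded RNA, and RNA was taken 48 hours later for a 1-color microarray. The control received esiRNAs against EGFP, a jellyfish gene with no counterpart in the mouse, and the other groups received esiRNAs against Dnmt1, Tet1, Mbd3, Mbd2 or Chd4, with 2 arrays in each of the 6 groups. All groups are therefore transfected cells, and a KD leaves residual target mRNA. The methods of the study call the arrays of a group biological replicates, and p-values measure the spread between these arrays.

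Hox genes encode homeodomain transcription factors that give cells their position along the head-to-tail axis of the embryo. The genes lie in a row in each cluster, and low paralog numbers act toward the head and high numbers toward the tail, where they also pattern limbs and the urogenital tract. In undifferentiated ES cells the clusters are held mostly silent, with Polycomb and Trithorax marks together at their promoters, and retinoic acid switches them on from the low-number end. Dnmt1 maintains cytosine methylation at CG dinucleotides and Tet1 oxidizes methylcytosine to hydroxymethylcytosine. Mbd2 and Mbd3 are alternative methyl-CpG-binding-domain subunits of NuRD, a repressor complex that joins histone deacetylases to the nucleosome remodeling ATPase Chd4. The comparison asks whether loss of any of these regulators changed Hox mRNA in ES cells.

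On the GRCm38.p6 assembly the Hoxa genes span chr6:52155367-52260880, the Hoxb genes chr11:96194316-96368254, the Hoxc genes chr15:102921131-103036856 and the Hoxd genes chr2:74668225-74765142. Because the study concerns methylation at CG, which Dnmt1 maintains, Tet1 oxidizes and Mbd2 binds, the promoters are shown with CG in capitals. RefSeq promoter windows of 300 bases, from 250 before to 50 after the start, matched 22 Hox genes with 24 windows, and the other 17 Hox genes had no entry. Hoxb was covered only by Hoxb1, Hoxb4 and Hoxb8 and Hoxc only by Hoxc4, so the windows describe mainly Hoxa and Hoxd. 4 stretches are printed, each the 250 bases before the start, 5′ to 3′ on the gene's strand: Hoxd3 and Hoxd11, whose promoters the study examined, Hoxa9, whose full window has the fewest CG (4, as do Hoxd4 and a further start of Hoxd11), and Hoxa13, which has the most (45).
Hoxd3 (chr2:74711743-74711992, plus strand): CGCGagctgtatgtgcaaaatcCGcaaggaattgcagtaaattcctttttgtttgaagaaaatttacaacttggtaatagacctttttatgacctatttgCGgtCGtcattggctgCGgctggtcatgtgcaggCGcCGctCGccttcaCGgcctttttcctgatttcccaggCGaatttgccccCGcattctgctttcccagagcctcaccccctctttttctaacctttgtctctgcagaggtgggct
Hoxd11 (chr2:74682073-74682322, plus strand): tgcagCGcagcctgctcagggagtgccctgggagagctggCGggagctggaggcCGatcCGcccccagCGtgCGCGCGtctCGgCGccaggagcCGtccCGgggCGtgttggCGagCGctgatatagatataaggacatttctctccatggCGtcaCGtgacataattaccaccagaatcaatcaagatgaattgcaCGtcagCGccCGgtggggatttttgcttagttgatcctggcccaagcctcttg
Hoxa9 (chr6:52227371-52227620, minus strand): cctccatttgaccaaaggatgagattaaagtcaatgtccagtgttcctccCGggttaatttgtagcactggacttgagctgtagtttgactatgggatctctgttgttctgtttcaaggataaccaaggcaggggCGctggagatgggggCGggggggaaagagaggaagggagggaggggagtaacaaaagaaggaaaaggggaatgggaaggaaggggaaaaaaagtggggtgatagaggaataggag
Hoxa13 (chr6:52260881-52261130, minus strand): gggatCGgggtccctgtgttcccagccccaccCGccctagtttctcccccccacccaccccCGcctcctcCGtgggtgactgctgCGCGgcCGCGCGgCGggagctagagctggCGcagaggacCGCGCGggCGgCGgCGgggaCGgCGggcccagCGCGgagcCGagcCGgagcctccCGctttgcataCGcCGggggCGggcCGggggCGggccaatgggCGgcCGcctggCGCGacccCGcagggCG
Hoxd3 holds 12 CG in this stretch and Hoxd11 20, while Hoxa9 holds 3 and Hoxa13 35. Over the full 300 bases the Hox windows held a median of 14.5 CG (range 4 to 45) against 7 over 32851 windows of 27025 genes. The ratio of observed to expected CG was above 0.6 in 12 of the 24 Hox windows, against 35.4% of all windows. CCGG was found on either strand in 19 Hox windows (79.2%) against 52.8% of all, AGGTCA, the half-site letters of retinoic acid receptors, in 7 (29.2%) against 16.3%, and TATAAA in 4 (16.7%) against 13.6%. These counts describe letters in the windows, and methylation was not measured on these arrays.

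**Figure D1:**
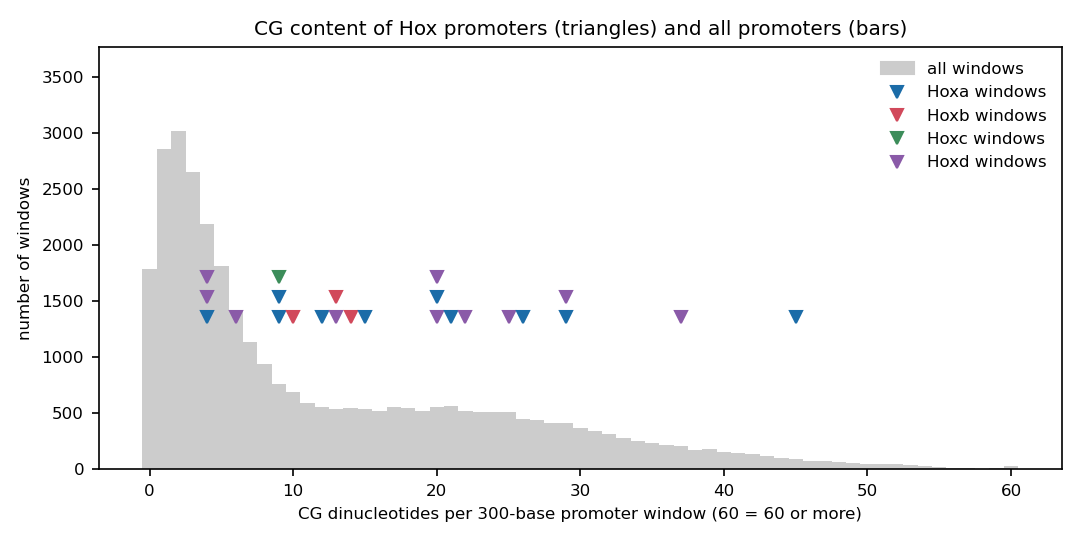
Number of CG dinucleotides per 300-base promoter window (horizontal axis) against the number of windows, with bars for all RefSeq windows given and a triangle for each of the 24 Hox windows, colored by cluster and stacked without scale. The Hox windows range from 4 to 45 with a median of 14.5, and the median over all windows is 7.

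Signal is given as log2 of the spot's background-corrected intensity over that array's 75th percentile, called log2 signal here, so that 0 is the 75th percentile of the array and −4.86 is the floor, the level below which at least 1 array had no probe well above background. In bulk samples, fewer cells expressing a gene and less RNA per cell cannot be told apart. Most Hox probes were dim. Of the 39 Hox genes, 15 were well above background on all 12 arrays and 9 on fewer than 6 arrays, no Hox probe was saturated, and 20 of the 35 tested genes had at least 1 value at the floor. Probes well above background on all 12 arrays included those of Hoxa3, Hoxa4, Hoxa9 and Hoxa13, of Hoxb6, Hoxb7 and Hoxb9, of Hoxc4, Hoxc6 and Hoxc13, and of Hoxd8, Hoxd9, Hoxd10 and Hoxd11. The full set comprised 2 of 8 anterior genes (paralogs 1 to 3), 6 of 15 central genes (4 to 8) and 7 of 16 posterior genes (9 to 13). For Hoxa13 this holds for the brightest probe, at −1.71 to −0.84. A second Hoxa13 probe was at the floor on all 12 arrays and well above background on 4. The annotated span of Hoxa3 contains those of Hoxa4, Hoxa5 and Hoxa6, and a probe there may also read transcripts of the longer gene. The same holds for Hoxb4 within Hoxb3 and Hoxd4 within Hoxd3, and the spans of Hoxd10 and Hoxd11 overlap in part.

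The genes that could not be tested were Hoxa2 and Hoxb1, hindbrain genes at the head end of their clusters, and Hoxa11 and Hoxc11, posterior genes. Hoxa2, Hoxa11 and Hoxc11 were at the floor on every array, and Hoxb1 on 11 of 12. Hoxb3 and Hoxb4 entered the test because both arrays of at least 1 group passed the background filter, but both genes lay at the floor on all 12 arrays and give no fold change. The number of Hox genes well above background ran from 20 of 39 on Mbd2 KD replicate 1 to 39 of 39 on Chd4 KD replicate 1, and was 25 and 35 on the EGFP KD arrays. Over all probes the share well above background ran from 76.9% to 95.2%, and it was 95.2% on the Chd4 KD array where every Hox probe passed.

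The arrays lay on 3 slides. Slide 1 held EGFP, Dnmt1, Mbd3 and Mbd2 KD replicate 1, slide 2 held both Tet1 KD arrays, Chd4 KD replicate 1 and EGFP KD replicate 2, and slide 3 held the second arrays of Dnmt1, Mbd3, Mbd2 and Chd4 KD and no control. The targeted mRNAs were measured relative to the EGFP KD mean. Mbd3 fell by 2.96 on the log2 scale in Mbd3 KD (limma adjusted p = 0.0039) and Chd4 fell by 1.28 in Chd4 KD (limma adjusted p = 0.042). Dnmt1 was −1.99 in Dnmt1 KD (limma adjusted p = 0.39), with −1.64 and −2.35 on the 2 arrays. For Tet1 mRNA the value was −0.02 for replicate 1 of the arrays labelled Tet1 KD and −1.81 for replicate 2, and it was −1.79 for replicate 1 of those labelled Mbd2 KD. The brightest probe of Mbd2 gave −0.08 and −0.07 for the arrays labelled Mbd2 KD (limma adjusted p = 1.0) and −0.2 and −0.61 for those labelled Tet1 KD. A further Mbd2 probe gave −1.75 for replicate 1 and −0.23 for replicate 2 of the arrays labelled Tet1 KD, against −0.24 and −1.77 for those labelled Mbd2 KD. On the Tet1 probe and the further Mbd2 probe the replicate 1 arrays of these KDs go against their labels. The labels were kept, and exchanged labels were not tested. Results for the groups labelled Tet1 KD and Mbd2 KD may therefore mix both depletions. Of 8 ES cell markers, 7 were well above background on all 12 arrays and none was called in any KD, but 4 of the 8 (Pou5f1, Zfp42, Esrrb and Dppa5a) were saturated on 11 or 12 arrays and could show little change. Of 8 fibroblast markers 5 were well above background on all 12 arrays and Postn on none.

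**Figure D2:**
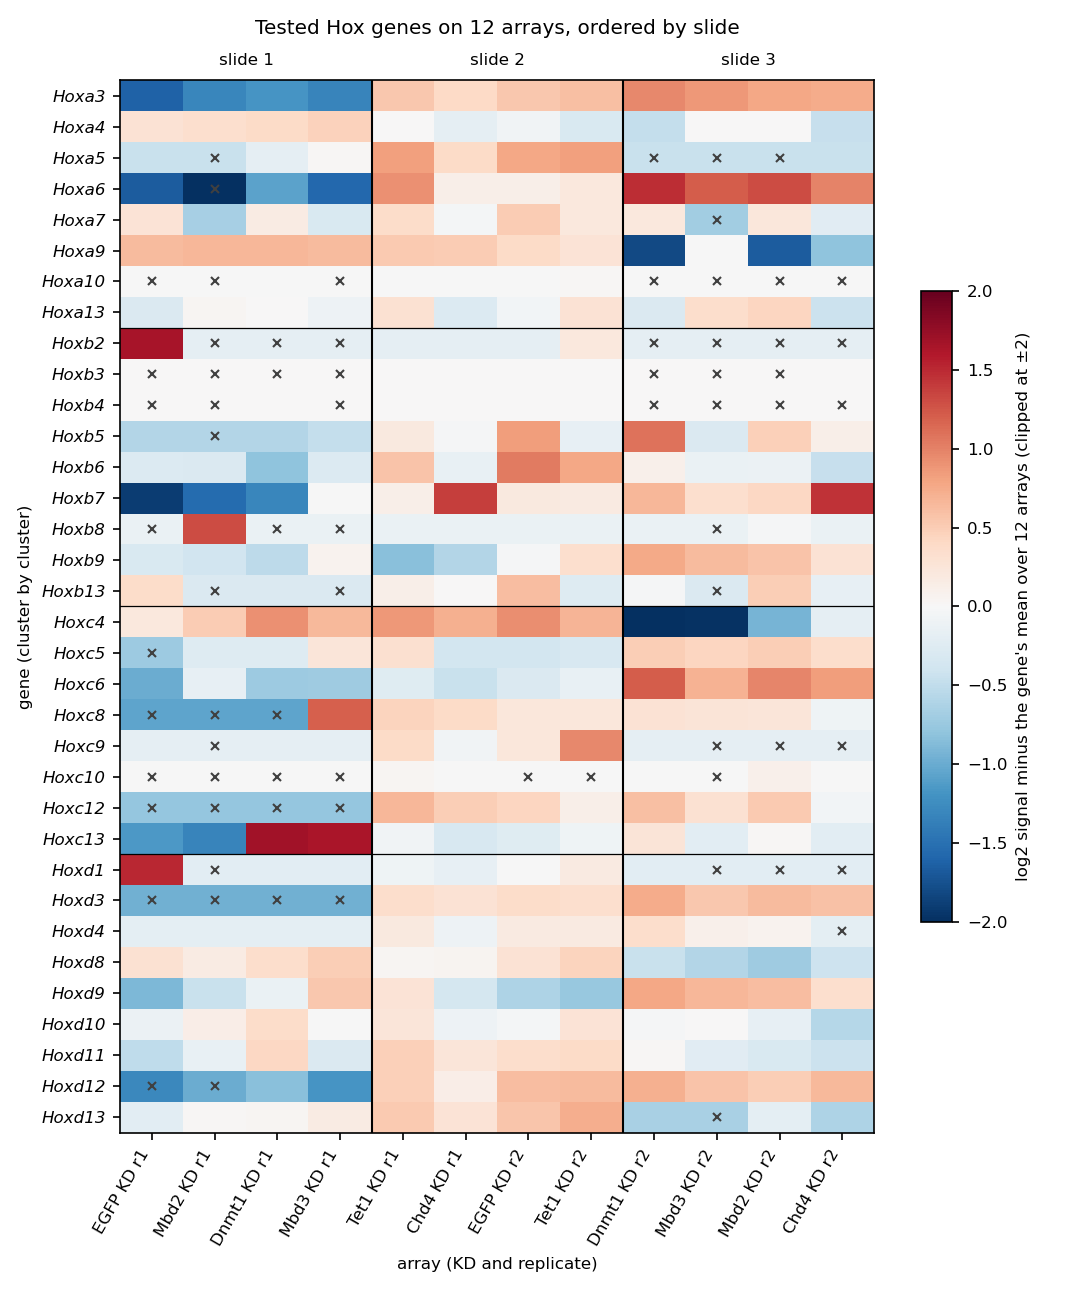
Log2 signal of tested Hox genes (rows, cluster by cluster) on the 12 arrays (columns, ordered by slide), with each gene's mean over the arrays subtracted, red above and blue below it and clipped at 2 in either direction. Crosses mark arrays where the probe was not well above background, and genes above background on all 12 arrays carry none.

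No Hox gene changed in any KD at a limma adjusted p under 0.05. Among the 35 tested, 0 were called after depletion of Chd4, where 3.2% of all 29546 genes were, and 0 after depletion of Mbd3, where 0.762% of all genes were. For Dnmt1 KD and for the groups labelled Tet1 KD and Mbd2 KD the count was 0 as well, and the background was 0% in each. At an unadjusted limma p under 0.05, Chd4 KD had 1 Hox gene (12.8% of all genes), Mbd3 KD 3 (9.66%) and Dnmt1 KD 1 (4.67%). The groups labelled Tet1 KD and Mbd2 KD had 1 (2.85%) and 0 (2.06%). The arrays of the KD and of EGFP KD did not overlap for 8 Hox genes with Chd4 depleted (22.9%, against 38.1% of all genes) and 9 with Mbd3 depleted (25.7%, against 30.1%). The same count was 7 for Dnmt1 KD (20.0%, against 21.1%), 12 for the arrays labelled Tet1 KD (34.3%, against 35.3%) and 8 for those labelled Mbd2 KD (22.9%, against 22.9%). The shares of Hox genes were near or below the background in each of the 5 comparisons, which all share the same 2 EGFP KD arrays. In simulated data with each gene's spread and no floor, the test recovered 44% to 48.5% of genes changed by 1.5 on the log2 scale. The changed genes were drawn from all genes, so this share does not carry over to the mostly dim Hox genes. A change of that size in a Hox gene would often have gone uncalled, as the SE reached 1.46 (Hoxa6). A fall below the floor cannot be seen.

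**Figure D3:**
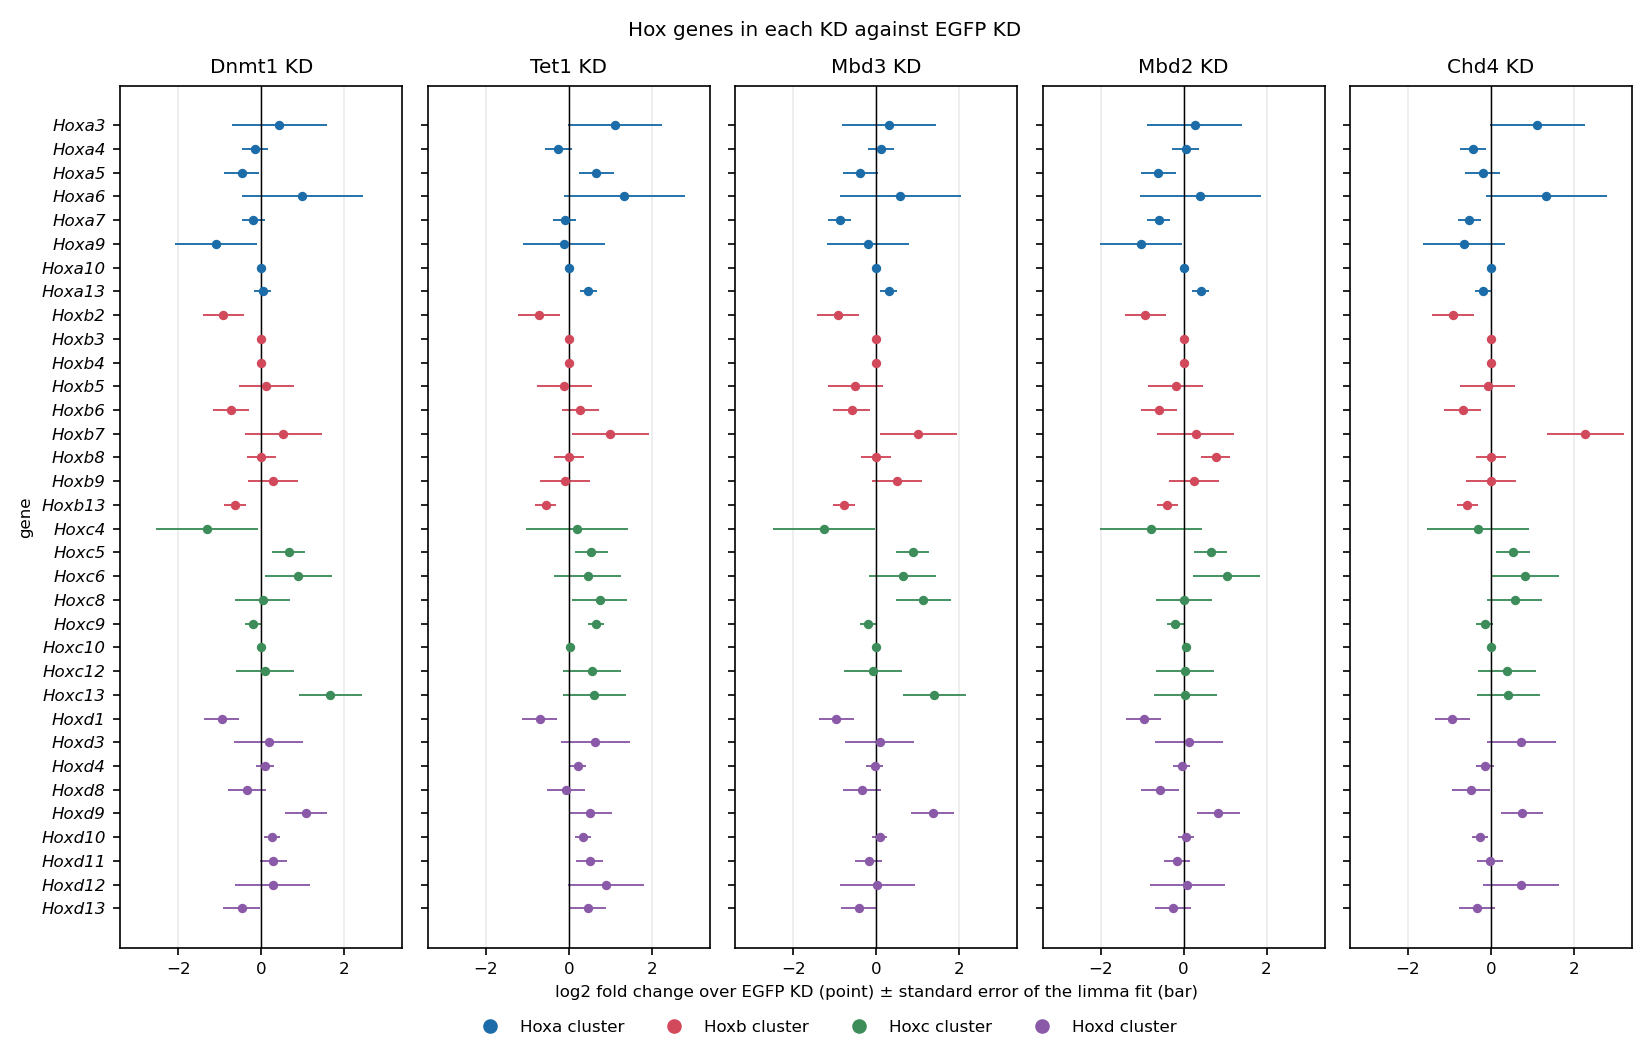
Log2 fold change of tested Hox genes in each KD against EGFP KD, colored by cluster, with points for the estimate and bars for 1 standard error of the limma fit (2 arrays per group). Values run from −1.31 (Hoxc4 in Dnmt1 KD) to 2.27 (Hoxb7 in Chd4 KD), and no point passes an adjusted p of 0.05.

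The median log2 fold change of the 35 Hox genes was highest for the arrays labelled Tet1 KD, at 0.28 (0.09 over all genes). It was −0.02 for Chd4 (0.0 over all genes), 0.03 for Dnmt1 (−0.01), 0.0 for Mbd3 (−0.03) and 0.0 for Mbd2 (0.0). The largest cluster median in Tet1 KD was that of Hoxc, 0.55 with 8 of 8 genes positive, followed by Hoxd at 0.45, Hoxa at 0.24 and Hoxb at 0.0. Both Tet1 KD arrays lay on slide 2, and against the EGFP KD array of that slide the Hox medians were 0.0 and 0.02, while with slide as a block the median was 0.06. In Chd4 KD the cluster medians were −0.2 for Hoxa, 0.0 for Hoxb, 0.4 for Hoxc and −0.14 for Hoxd. The medians of anterior, central and posterior genes were 0.12, 0.21 and 0.46 in Tet1 KD and −0.12, −0.08 and −0.01 in Chd4 KD. In Dnmt1, Mbd3 and Mbd2 KD the medians of these paralog classes lay between −0.06 and 0.06.

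In Chd4 KD the largest difference was that of Hoxb7, a central gene that acts in the trunk. Its log2 signal was −0.84 and −0.78 on the Chd4 KD arrays and −4.12 and −2.04 on those of EGFP KD. The other arrays gave −3.54 and −1.56 (Dnmt1), −2.11 and −2.05 (Tet1), −2.23 and −1.9 (Mbd3) and −3.76 and −1.81 (Mbd2). The Chd4 KD arrays were the highest of all 12 and the highest on both of their slides. The mean was −0.81 ± 0.04 (SD, n = 2) against −3.08 ± 1.47 in EGFP KD, a log2 fold change of 2.27 with SE 0.93. It had the only unadjusted limma p under 0.05 in Chd4 KD, at 0.045 (adjusted p = 0.37). Hoxb7 was about as spread in Dnmt1 KD (SD 1.39) and Mbd2 KD (SD 1.38), whose arrays also lay on different slides. The value was 1.23 without EGFP KD replicate 1, 3.31 without EGFP KD replicate 2 and 1.51 with slide as a block, with limma adjusted p between 0.14 and 0.97 over all alternatives. The log2 of the summed signal of 5 neuroectoderm markers was 3.22 to 3.37 in Chd4 KD against 2.03 to 2.05 in EGFP KD, that of 6 trophectoderm markers 3.81 to 3.88 against 2.76 to 2.90, and that of fibroblast markers 3.18 to 3.55 against 2.15 to 2.34. These sums follow their brightest members, Thy1 in the fibroblast list (a log2 fold change of 1.42 in Chd4 KD) and Otx2 in the neuroectoderm list (1.84). In Chd4 KD the calls in these lists were Otx2, Tfap2c, Krt18, Thy1 and Col1a1, all higher. The median log2 fold change of the fibroblast list was −0.02, with values of −1.07 for Lum and −0.74 for Col3a1 that did not pass the test, and that of the neuroectoderm list was 0.41. Their part in the Hoxb7 difference was not tested.

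The next differences in Chd4 KD were those of Hoxa6, a central gene, and Hoxa3, which is needed for the thymus and parathyroid. Hoxa6 was −2.7 and −1.83 in Chd4 KD against −4.49 and −2.71 in EGFP KD, a log2 fold change of 1.33 that became −0.1 with slide as a block. Hoxa3 was −2.06 and −1.72 against −4.08 and −1.93, a log2 fold change of 1.12 that became 0.03 with slide as a block. For Hoxa3 the groups overlapped, for Hoxa6 the lower KD array was 0.01 above the control on its slide, and neither passed the test (limma adjusted p = 0.87 for Hoxa6 and 0.86 for Hoxa3).

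In Mbd3 KD, Hoxd9, a posterior gene active in the limb and lower spine, was −3.22 and −3.1 against −4.66 and −4.37 in EGFP KD. Both KD arrays lay above both controls, with means of −3.16 ± 0.09 and −4.52 ± 0.2 (SD, n = 2) and a log2 fold change of 1.36 (SE 0.51, limma adjusted p = 0.42). Hoxd9 was −3.89 and −2.99 in Dnmt1 KD and −4.11 and −3.43 in Chd4 KD. On the arrays labelled Tet1 KD it was −3.48 and −4.52, and on those labelled Mbd2 KD −4.21 and −3.14. The arrays of Dnmt1, Mbd2 and Chd4 KD also all lay above both controls. With normexp background correction the Mbd3 KD value was −0.19. Summed signals of some marker lists also differed in Mbd3 KD. Their log2 was 3.19 to 3.22 against 2.15 to 2.34 for fibroblast markers, 3.52 to 3.55 against 2.76 to 2.90 for trophectoderm markers and 2.45 to 2.70 against 2.03 to 2.05 for neuroectoderm markers. The sums again follow bright members, such as Thy1 (a log2 fold change of 1.28) and Otx2 (0.88). The median log2 fold change was −0.13 for the fibroblast list, −0.27 for the neuroectoderm list and 0.48 for the trophectoderm list. Lum (−1.0), Col3a1 (−0.57), Pax6 (−0.75) and Sox1 (−0.39) were lower and did not pass the test. Thy1 and Tfap2c were called higher and Gata3 lower (limma adjusted p = 0.011, 0.044 and 0.035), and their part in the Hox values of Mbd3 KD was not tested.

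Hoxb13, the tail-most Hoxb gene and a prostate regulator, was not well above background on either Mbd3 KD array. It was −4.21 and −3.95 in EGFP KD, which makes it at least 1.71-fold lower in Mbd3 KD (limma adjusted p = 0.36), and its fold change in Dnmt1 KD was −0.64 on the log2 scale (limma adjusted p = 0.94). Hoxa7, a central gene of the trunk, was −4.48 and at the floor in Mbd3 KD against −3.9 and −3.67, a log2 fold change of −0.88 (SE 0.28, limma adjusted p = 0.32). It was also lower in Mbd2 KD (−0.6), Chd4 KD (−0.52), Dnmt1 KD (−0.2) and Tet1 KD (−0.1). Both genes lay near the floor in these samples, and neither passed the adjusted test.

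In Dnmt1 KD the largest difference was that of Hoxc13, the most posterior Hoxc gene, which acts in hair and nail. Its log2 signal was −1.21 and −2.62 in Dnmt1 KD and −1.26 and −3.09 in Mbd3 KD, against −4.03 and −3.12 in EGFP KD. The remaining arrays gave −2.95 and −2.97 (Tet1), −4.21 and −2.86 (Mbd2) and −3.21 and −3.09 (Chd4). The first arrays of Dnmt1 and Mbd3 KD stood 2.82 and 2.77 above the EGFP KD array on the same slide, while their second arrays, on slide 3, lay close to the rest. The log2 fold changes were 1.66 in Dnmt1 KD (SE 0.76, limma adjusted p = 0.94) and 1.4 in Mbd3 KD (SE 0.76, limma adjusted p = 0.69).

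Hoxc4, a central gene of the neck and upper chest, and Hoxa9, a posterior gene also used in blood progenitors, were low on slide 3. Hoxc4 was −1.56 and at the floor in Dnmt1 KD and −1.83 and −4.46 in Mbd3 KD, against −2.26 and −1.54 in EGFP KD, which has no array on slide 3. The log2 fold changes were −1.31 in Dnmt1 KD and −1.25 in Mbd3 KD, and became 0.34 and 0.07 without the second array of the KD. Hoxa9 was −0.53 and −3.01 in Dnmt1 KD and −0.54 and −2.87 in Mbd2 KD, against −0.56 and −0.81, with log2 fold changes of −1.09 and −1.02. A second Hoxa9 probe did not share this: its slide means were −2.95, −2.69 and −2.87, while those of the brightest probe were −0.55, −0.78 and −2.27.

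In Mbd2 KD the largest rise in mean was that of Hoxc6, a central gene of the chest, at −3.69 and −2.55 against −4.51 and −3.81, a log2 fold change of 1.04 (SE 0.81, limma adjusted p = 1.0) that became 0.51 with slide as a block. In Tet1 KD the largest was that of Hoxa6, at −1.91 and −2.61 against −4.49 and −2.71, a log2 fold change of 1.34 (SE 1.46, limma adjusted p = 1.0) that became 0.39 with slide as a block and ran from 0.15 to 2.23 over all alternatives. Hoxa3 and Hoxb7 followed in Tet1 KD at 1.11 and 1.0, which became 0.11 for each with slide as a block. Both Tet1 KD arrays of Hoxa6 and Hoxa3 were above both controls, but by at most 0.8 above the control on their slide. Hoxc9, a posterior gene of the trunk, had the only unadjusted p under 0.05 in Tet1 KD, with −4.3 and −3.72 against the floor and −4.45 and a log2 fold change of 0.65 (SE 0.2, limma adjusted p = 1.0). Hoxc9 was at the floor on every array of slides 1 and 3. Within slide 2 the Tet1 KD arrays lay 0.15 and 0.73 above the control.

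Hoxd3, an anterior gene of the neck vertebrae and throat, was at the floor and not well above background on all 4 arrays of slide 1, between −3.61 and −3.53 on slide 2 and between −3.36 and −3.16 on slide 3. Its log2 fold changes against EGFP KD were 0.73 for Chd4, 0.64 for Tet1, 0.18 for Dnmt1, 0.13 for Mbd2 and 0.08 for Mbd3, each with SE 0.83 and none past the test. Slide means accounted for 99.6% of the variance of its 12 values. Hoxd11, which shapes the forearm together with its Hoxa paralog, was −4.32 and −3.46 on the EGFP KD arrays. It was −3.4 and −3.79 in Dnmt1 KD, −4.1 and −4.04 in Mbd3 KD and −3.57 and −4.25 in Chd4 KD. The arrays labelled Tet1 KD gave −3.34 and −3.44, and those labelled Mbd2 KD −3.97 and −4.12. Its log2 fold changes lay between −0.18 and 0.5 (SE 0.32), and with slide as a block Dnmt1 KD reached 0.71 (limma adjusted p = 0.29).

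**Figure D4:**
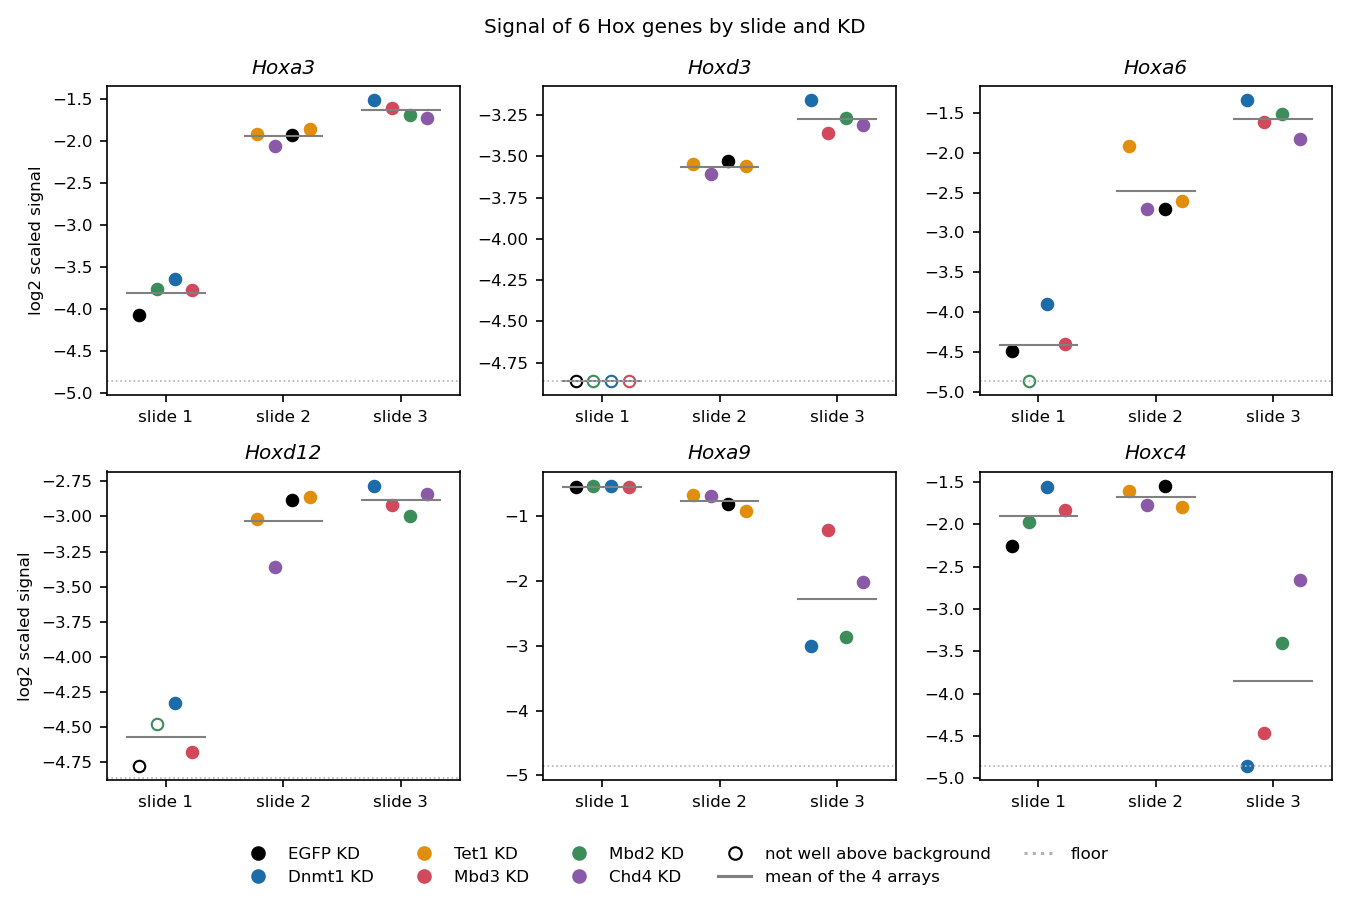
Log2 signal of 6 Hox genes on each array, arranged by slide and colored by KD. Open circles were not well above background, lines are means of the 4 arrays of a slide, the dotted line is the floor, and each panel has its own axis. Hoxd3 lies at the floor on slide 1 and between −3.61 and −3.16 on slides 2 and 3, whichever KD the array was labelled with.

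More Hox genes were called between slides than in any KD, but the counts come from unlike tests. The slide test compared slides of 4 arrays with slide terms in the fit. The KD tests compared 2 arrays with 2 in a fit without them. An F-test of the slide terms beside the groups, added after the values were seen, called 13 of the 35 Hox genes at a limma adjusted p under 0.05 (37.1%, against 24.4% of all genes). They were Hoxa3, Hoxa5, Hoxa6 and Hoxa9, Hoxb7, Hoxc6 and Hoxc12, and Hoxd3, Hoxd4, Hoxd8, Hoxd11, Hoxd12 and Hoxd13. Hoxa3 had means of −3.82, −1.94 and −1.63 on slides 1, 2 and 3 (limma adjusted p = 0.00044), and Hoxa6 had −4.41, −2.48 and −1.58 (limma adjusted p = 0.003). Hoxd12, a digit gene, had −4.57, −3.03 and −2.89 (limma adjusted p = 0.0036). Every array of slide 1 was below all others for 7 of the 35 (20.0%, against 9.3% of all genes), and every array of slide 3 for 3 (8.6%, against 9.16%), which were Hoxd8, Hoxa9 and Hoxc4. The 6 genes at the floor somewhere among the 13 have differences that the floor shortens. The floor can also remove spread within a slide, as for Hoxd3 and Hoxc12 on slide 1. Between the controls, which lie on slides 1 and 2, the median Hox difference was 0.36, with 25 of 35 higher on slide 2 and 5 lower, against a median of 0.12 and 60.4% higher over all genes. Slide 1 holds only replicate 1 arrays and slide 3 only replicate 2 arrays, so slide and replicate number cannot be told apart there.

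**Figure D5:**
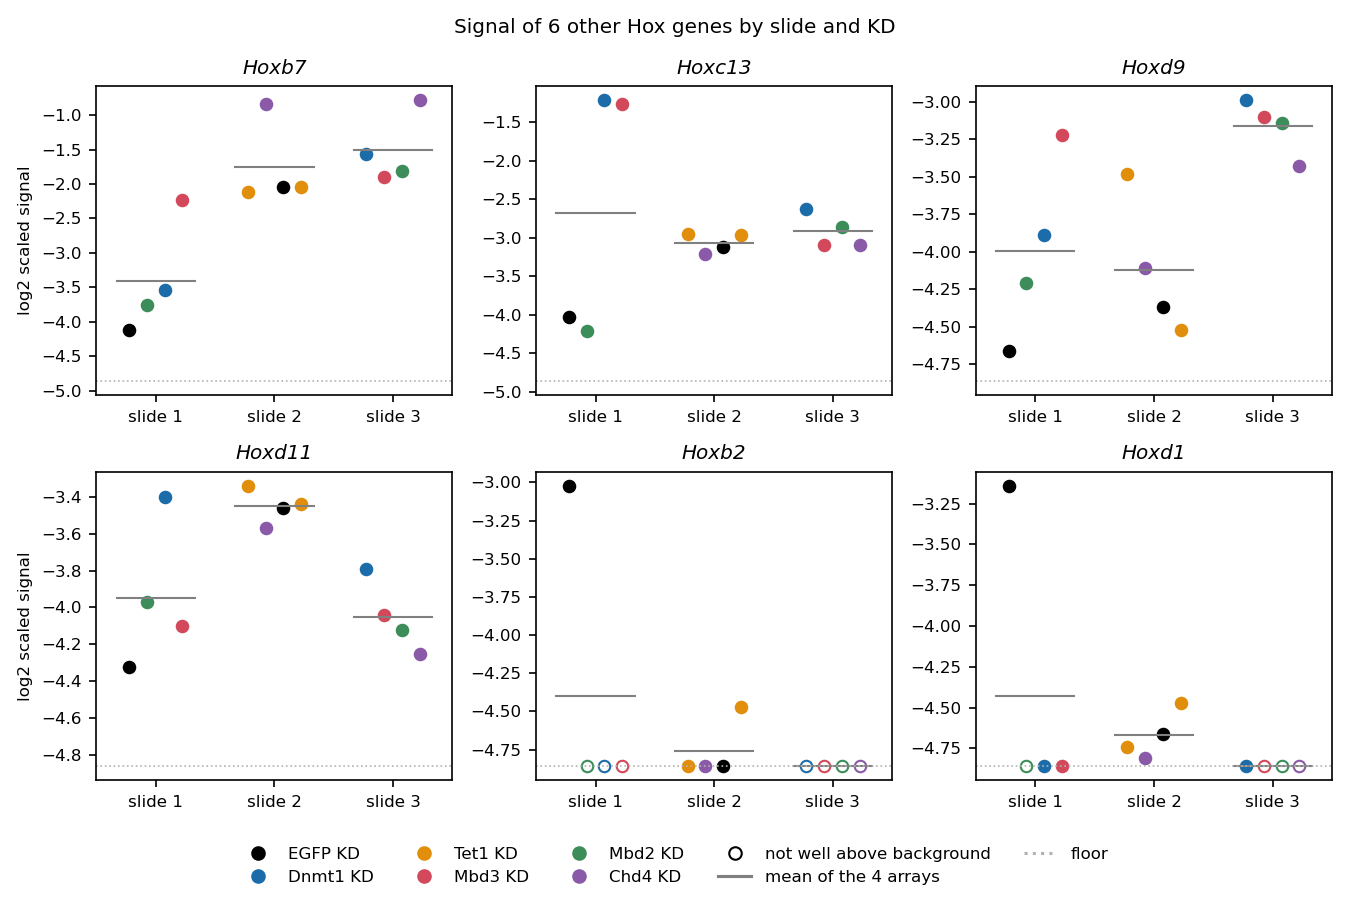
Log2 signal of 6 other Hox genes on each array, drawn by slide and KD with the same marks and separate axes. Hoxc13 stands at −1.21 and −1.26 on single Dnmt1 and Mbd3 KD arrays, and Hoxb2 is above −4 only on 1 EGFP KD array.

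A few Hox genes were bright on a single array. Hoxb2, a hindbrain gene, was −3.02 on EGFP KD replicate 1, −4.47 on Tet1 KD replicate 2 and at the floor on the other 10. Hoxd1, a sensory neuron gene, was −3.14 on that same EGFP KD array and between the floor and −4.47 on the other 11. Without EGFP KD replicate 2 both genes were called lower in all 5 KDs, Hoxd1 by −1.46 to −1.72 and Hoxb2 by −1.64 to −1.84 on the log2 scale, with a single control array left that was assumed to vary like the other groups. With both controls, the log2 fold change of Hoxd1 was −0.96 in each of Dnmt1, Mbd3 and Mbd2 KD, −0.93 in Chd4 KD and −0.7 in Tet1 KD. Neither Mbd2 KD array was well above background. Hoxd1 did not pass the limma test in any KD (smallest adjusted p = 0.43, in Chd4 KD). No "at least" fold is given for either gene, since the differences rest on the first control array. The second was at the floor for Hoxb2 and at −4.66 for Hoxd1. Hoxb8, a central gene, was −3.43 for replicate 1 of the arrays labelled Mbd2 KD and −4.75 or at the floor elsewhere. Its log2 fold change in Mbd2 KD was 0.77, and 1.43 when Mbd2 KD replicate 2 was left out. The latter rests on the single replicate 1 array, where the Mbd2 probes stood at −0.08 and −0.24 from the EGFP KD mean and Tet1 at −1.79. Hoxc8, a central gene of the chest, was −2.62 on Mbd3 KD replicate 1 and at the floor on the other arrays of that slide.

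Between KDs, 0 of 35 Hox genes were called for Mbd3 against Mbd2 KD (0.521% of all genes) and 0 for Chd4 against Mbd3 KD (1.41%). Hoxc13 had the largest Mbd3 minus Mbd2 difference, 1.36 (SE 0.76, limma adjusted p = 1.0), and the group ranges overlapped. Hoxb7 had the largest Chd4 minus Mbd3 difference, 1.26 (SE 0.93, limma adjusted p = 0.85). Hoxa13, a digit and genital gene, was −1.55 and −1.71 in Chd4 KD and −1.37 and −0.92 in Mbd3 KD, a difference of −0.48 (limma adjusted p = 0.49). These values are from its brightest probe, and a second probe was at the floor on every array.

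Genes that regulate or accompany the clusters were followed as lists. Among the Hox cofactors of the TALE class, Meis, Pbx and Pknox genes that bind DNA beside Hox proteins, 0 of 9 tested were called in any KD, and in Chd4 KD the largest differences were those of Meis2 (−0.83) and Meis3 (0.49). The Cdx and ParaHox genes, of which the Cdx genes activate Hox clusters, had 0 of 5 called, with Pdx1 at 1.24 and Cdx1 at 0.62 in Chd4 KD. Neighbours of the clusters had 0 of 12 called, with Evx2, at the end of Hoxd, at 0.64 and Skap1 at 0.60. Of the Polycomb group, which silences Hox genes, 0 of 22 were called, with Phf19 at 1.12 and Jarid2 at 0.55, and of the Trithorax group and H3K27 demethylases, which oppose it, 0 of 9 were called, with Dpy30 at −0.84 and Kdm6b at −0.35.

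The retinoic acid pathway, which induces Hox genes, held the only list members that passed. In Chd4 KD 3 of 18 tested rose and 0 fell, against 3.2% of all genes called, and 0 were called in the other KDs. Crabp1 and Crabp2, cellular retinoic acid binding proteins, rose by 1.96 (SE 0.22, limma adjusted p = 0.0058) and 1.02 (SE 0.1, limma adjusted p = 0.0037). Crabp1 was 0.85 and 0.57 in Chd4 KD against −1.28 and −1.21 in EGFP KD, and Crabp2 2.93 and 2.84 against 1.8 and 1.94. The receptor, synthesis and degradation genes of the list did not pass the test, and the median of the list was 0.12 in Chd4 KD. None of the 3 was called with normexp background correction or with only the 4 arrays of the comparison.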

How the data were processed

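RNA from 12 samples was hybridized to 1-color Agilent arrays, and the authors deposited intensity values per spot (processed signal, median signal and local background) from Agilent Feature Extraction 10.7.1.1, not normalized between arrays. They also deposited a log2 table of 12459 spots relative to EGFP KD, which lists 8 Hox genes and was used only as an alternative. Its scale is compressed and its direction was taken as KD over EGFP KD. The number of arrays limits precision.

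Control spots (1377) and outlier spots were left out, each array was divided by its 75th percentile, values below 0.0344 were set to it, and log2 was taken. Each gene was read from its brightest probe, and it was tested if that probe had a value on all 12 arrays and passed the background flag on the 2 arrays of any group. The 6 group means were estimated in R 4.3.3 by limma 3.58.1 (lmFit, eBayes, Benjamini-Hochberg over 29546 genes). Slide was examined in an F-test chosen after the data were seen. On simulated data with 200 genes changed by 1.5 log2 units the fit made 6 to 8 false calls. "At least" folds set the dim group at the floor.

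The members and the gene lists were chosen with earlier results of these data known. Per-array values are given for called members, for the 3 largest differences per KD, and for Hoxd3 and Hoxd11; of each list, called members or the 2 largest differences in Chd4 KD are named, and other Hox genes named were chosen after their values were seen. Alternatives covered normalization, background correction, floor, filter, probe choice, variance prior, replicate and slide blocks, array subsets and each array left out. Symbols came from RefSeq annotation through accessions, which named 98.2% of the spots with a RefSeq accession. Some genes counted among the members and lists are not reported by name here.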

Additional observations from a re-analysis of the deposited data

How the results depend on the processing

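The count of 0 Hox genes called in each KD held under 24 of 26 alternatives. The others were the unadjusted threshold (1 in Dnmt1, 1 in Tet1, 3 in Mbd3 and 1 in Chd4 KD) and leaving out EGFP KD replicate 2 (2 in each KD) or Mbd2 KD replicate 2 (1 in Mbd2 KD and 1 for Mbd3 against Mbd2 KD), so over single arrays left out the range was 0 to 2 and, between Mbd3 and Mbd2 KD, 0 to 1. With the replicate number as a block the counts stayed at 0 in each KD, and over all genes Chd4 KD had 1277 calls instead of 946; the differences between replicates correlated by −0.042 to 0.767 over 15 pairs of groups, so the numbers were not taken as pairs. Median Hox values moved most with normexp background correction, to −0.86 in Dnmt1, −0.68 in Tet1, −0.8 in Mbd3, −0.79 in Mbd2 and −0.88 in Chd4 KD, where the median of all genes moved to between −0.395 and −0.261. In Tet1 KD the median was 0.11 after quantile normalization, 0.45 with the floor halved, 0.06 with slide as a block, 0.01 within the slide and 0.011 in the authors' table. In Chd4 KD it was −0.36 after quantile normalization and −0.18 over genes well above background on all 12 arrays, where Dnmt1 KD had 0.25. With single arrays left out the medians ran from −0.14 to 0.15 in Dnmt1, 0.02 to 0.59 in Tet1, −0.11 to 0.15 in Mbd3, −0.41 to 0.13 in Mbd2 and −0.22 to 0.04 in Chd4 KD. The 13 Hox genes called between slides became 8 with normexp, 20 without group terms and 6 to 12 with single arrays left out, 6 without either Mbd2 KD array and 7 without either Dnmt1 KD array. Of the lists, cofactors had 1 call with every probe and 0 to 2 with arrays left out, Cdx and ParaHox genes 1 after quantile normalization, neighbours 1 with slide as a block, Polycomb 1 with the mean of probes, every probe or array weights and 0 to 1 with arrays left out, Trithorax 1 with the replicate block and 1 with slide as a block, and the retinoic acid pathway 0 with normexp, 5 with slide as a block and 0 with only the 4 arrays of a comparison. Without the second array of the KD, Hoxc4 was 0.34 in Dnmt1 and 0.07 in Mbd3 KD and Hoxa9 0.15 in Dnmt1 and 0.14 in Mbd2 KD, and without the first they were −2.96, −2.56, −2.33 and −2.18. Hoxb7 in Tet1 KD was −0.04 without EGFP KD replicate 1 and 2.04 without EGFP KD replicate 2, Hoxd9 in Mbd3 KD −0.19 and Hoxc6 in Mbd2 KD −0.1 with normexp, and Hoxa6 in Chd4 KD −0.1 with slide as a block. The cause was not tested. Dim signal limits the Hox results: values at the floor have no order.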
